A study of Mus musculus with 32 samples.

Results

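The glucocorticoid receptor target genes described here are 10 genes taken as readouts of the hormone, which are Fkbp5, Tsc22d3, Zbtb16, Dusp1, Sgk1, Klf9, Klf15, Errfi1, Sult1a1 and Anxa1. They were set as a list of names, not by a threshold on measured values, but were chosen with earlier results of these data known. Shares and medians of the 10 genes beside those of all genes are therefore descriptions and no independent support. The names were matched by symbol to 10 of the 47643 Ensembl genes of the count table. All 10 passed the filter on low counts in both tissues (15187 genes tested in eWAT and 12391 in liver). RNA was measured with QuantSeq, which counts transcript ends, in epididymal fat (eWAT) and liver of male C57BL/6 mice (C57BL/6J in the study's methods) of 10 weeks of age, in 32 libraries, 4 for each group of a tissue. For 7 days the mice drank water with corticosterone (Cort) or with the ethanol vehicle alone (Veh) and ate a diet with 20% (NPD) or 60% (HPD) of its calories from protein, which gave the groups Veh NPD, Cort NPD, Veh HPD and Cort HPD. The HPD held less carbohydrate, as corn starch, so that both diets had the same calories. More protein and less carbohydrate therefore cannot be told apart in any comparison of the diets. All mice ate the NPD and drank from water bottles before the study, and all were fasted for 4 h before tissue was taken. The comparison of interest was how strongly each mouse showed the hormone in these genes, and whether this differed with the diet and the tissue.

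Corticosterone, the main glucocorticoid of mice, enters the cell and binds the glucocorticoid receptor (Nr3c1), which then moves to the nucleus and binds DNA at an element whose arms are inverted copies of each other. Fkbp5 encodes a co-chaperone that lowers the affinity of the receptor for its ligand, so that its induction forms a short feedback loop. Tsc22d3 (GILZ), Dusp1 and Anxa1 carry much of the anti-inflammatory action of the hormone, and Zbtb16, Klf9 and Klf15 are transcription factors that pass the signal on. Sgk1 is a kinase of ion transport and survival, Errfi1 is an inhibitor of the EGF receptor, and Sult1a1 is a sulfotransferase of phenols.

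The consensus element of the receptor was searched in the windows from 250 bases before to 50 bases after each annotated start site (RefSeq, GRCm38.p6). The element was spelled as the arm AGAACA, any 3 bases and the arm TGTTCT, and both strands were read. Windows were given for 9 of the 10 genes (17 windows), and Zbtb16 had none. These sequences are shown because 1 window of Sgk1 held the element without a mismatch, Sult1a1 held it with 2 mismatches and Fkbp5, which had the largest rise of the 10 genes with Cort on the NPD in both tissues, held neither arm. The windows are written on the strand of the gene, with the arms in capitals. They are chr10:21993640-21993939 (plus strand) for Sgk1, chr7:126676369-126676668 (minus strand) for Sult1a1 and chr17:28486100-28486399 (minus strand) for Fkbp5.
Sgk1: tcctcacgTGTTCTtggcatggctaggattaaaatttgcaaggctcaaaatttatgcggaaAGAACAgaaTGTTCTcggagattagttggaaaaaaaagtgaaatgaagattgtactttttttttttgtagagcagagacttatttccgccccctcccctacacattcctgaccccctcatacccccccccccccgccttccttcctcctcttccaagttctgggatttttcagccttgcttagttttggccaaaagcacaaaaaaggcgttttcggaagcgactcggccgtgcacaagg
Sult1a1: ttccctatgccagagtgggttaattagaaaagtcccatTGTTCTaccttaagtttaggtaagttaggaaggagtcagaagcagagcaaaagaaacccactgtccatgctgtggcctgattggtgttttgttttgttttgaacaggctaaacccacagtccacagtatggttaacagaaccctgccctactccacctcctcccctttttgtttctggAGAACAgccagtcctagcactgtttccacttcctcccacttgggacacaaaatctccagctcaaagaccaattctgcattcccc
Fkbp5: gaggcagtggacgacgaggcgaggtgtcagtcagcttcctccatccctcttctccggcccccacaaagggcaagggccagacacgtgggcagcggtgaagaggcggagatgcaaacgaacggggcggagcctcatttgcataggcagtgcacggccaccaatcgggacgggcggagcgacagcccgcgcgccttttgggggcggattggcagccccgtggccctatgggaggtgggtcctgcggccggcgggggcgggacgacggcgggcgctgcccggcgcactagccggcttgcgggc

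In Sgk1 the element began at position -189 from that start site, as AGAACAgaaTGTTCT, where capitals mark letters that match the consensus. In Sult1a1 the best match began at position -34, as AGAACAgccaGTcCT. Of the 32851 windows of all genes, 3 held the element without a mismatch, which is 0.00913% of them. With up to 2 mismatches it was held by 3 of the 17 windows of the 10 genes (17.6%), 1 of Sult1a1 and 2 of Sgk1, and by 1.84% of all windows. An arm was held by 5 of the 17 windows (29.4%), in 3 genes, and by 19.0% of all windows, and each full match holds both arms as well. Sgk1 had 6 of the 17 windows, and the windows cover start sites alone, so that a match or its absence is a description of these letters.

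The libraries held between 8933307 and 18057936 counts. Veh HPD replicate 4 of liver was left out, as set beforehand, so that the liver fit used 15 libraries. It stood apart from its group (root mean square log2 distance 0.950, against 0.446 to 0.645 for the other liver libraries). In eWAT, Cort HPD replicate 4 stood apart by the same measure (1.06, against 0.706 to 0.910 for the other eWAT libraries). It held 12246 CPM of epididymis markers where no other library passed 10.4 CPM, and it was kept. Adipocyte markers summed to 31846 CPM or more in every eWAT library and hepatocyte markers to 74905 CPM or more in every liver library used. Levels are CPM, read counts scaled to the library total times its TMM factor, and the genes named can be compared with each other since transcript ends do not grow in number with gene length. These are bulk samples, in which fewer cells of a type and less RNA per cell cannot be told apart.

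In eWAT of mice on the NPD, Cort raised 2 of the 10 genes, Fkbp5 and Sult1a1, and none passed the test for a fall. Of all genes tested in this comparison 7.98% were called, 4.05% as higher and 3.93% as lower. Fkbp5 (on the minus strand at chr17:28399094-28517527 of GRCm38) was at 59.3, 70.7, 37.2 and 62.8 CPM in the 4 Veh NPD libraries and at 192, 185, 224 and 168 CPM in the 4 Cort NPD libraries. The lowest Cort library stood above the highest Veh library by a wide margin. The rise was 3.34-fold (log2 fold change 1.74, SE 0.39, edgeR adjusted p = 0.0156), and without Veh NPD replicate 3 it was 1.58 with an edgeR adjusted p of 0.0552. Sult1a1 (minus strand, chr7:126672865-126676432) went from 105, 119, 108 and 130.2 CPM to 342, 281, 351 and 303 CPM, again with no overlap and with little spread in either group. It rose 2.77-fold (log2 fold change 1.47, SE 0.25, edgeR adjusted p = 0.00148) and was called in all 24 alternative settings. Sult1a1 overlaps Sgf29 on the other strand, which held 5390 counts over all libraries beside 120840 of Sult1a1, and the strand setting of the counting is not given in the sources used here.

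The anti-inflammatory genes did not pass the test in this comparison. Tsc22d3 was at 201, 378, 162 and 383 CPM in Veh NPD and at 591, 459.6, 510.1 and 406 CPM in Cort NPD. Its groups did not overlap, and the spread lay within the Veh group, where replicates 2 and 4 were near the Cort level and replicates 1 and 3 well below it (log2 fold change 0.81, SE 0.33, edgeR adjusted p = 0.182). Anxa1 was at 215 CPM ± 68.9 (SD, n = 4) in Veh NPD and 336 CPM ± 98.3 (SD, n = 4) in Cort NPD, with a change of 0.64 on the log2 scale, and its groups overlapped. Dusp1, the phosphatase of MAP kinases, was at 74.6 CPM ± 27.5 (SD, n = 4) and 49.4 CPM ± 4.66 (SD, n = 4), with a change of -0.59. It overlaps Ergic1 on the other strand, which held 39258 counts beside 18124 of Dusp1, so that its values are uncertain where the counting ignored strand.

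Of the 2 signalling genes, Sgk1 (plus strand, chr10:21882184-21999903) was at 48.7, 72.1, 42.7 and 40.03 CPM in Veh NPD and at 32.1, 32.1, 27.2 and 23.4 CPM in Cort NPD. Every Cort library lay below every Veh library, although the change of -0.82 (SE 0.25) just missed the threshold (edgeR adjusted p = 0.0541), and 8 of the 24 alternative settings called it lower. Errfi1 was likewise lower without overlap, with a change of -0.70 and an edgeR adjusted p of 0.155. Among the transcription factors, Klf9 was higher without overlap (change 0.44, edgeR adjusted p = 0.0874), and Zbtb16 and Klf15 had changes of -0.02 and 0.03, whose sign turned in 5 of 24 alternative settings each. In all, 6 of the 10 genes had groups that did not overlap, where 14.9% of all genes tested did, and 6 of the 10 changes were positive. The median change of the 10 genes was 0.23 and their median absolute change 0.67, where the medians over all genes tested were -0.02 and 0.31. Fibroblast and progenitor markers (6 of 6 matched, none at 0) summed to 1638 to 2777 CPM in Veh NPD and to 835 to 1078 CPM in Cort NPD, without overlap, and their part in these values was not tested.

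**Figure D1:**
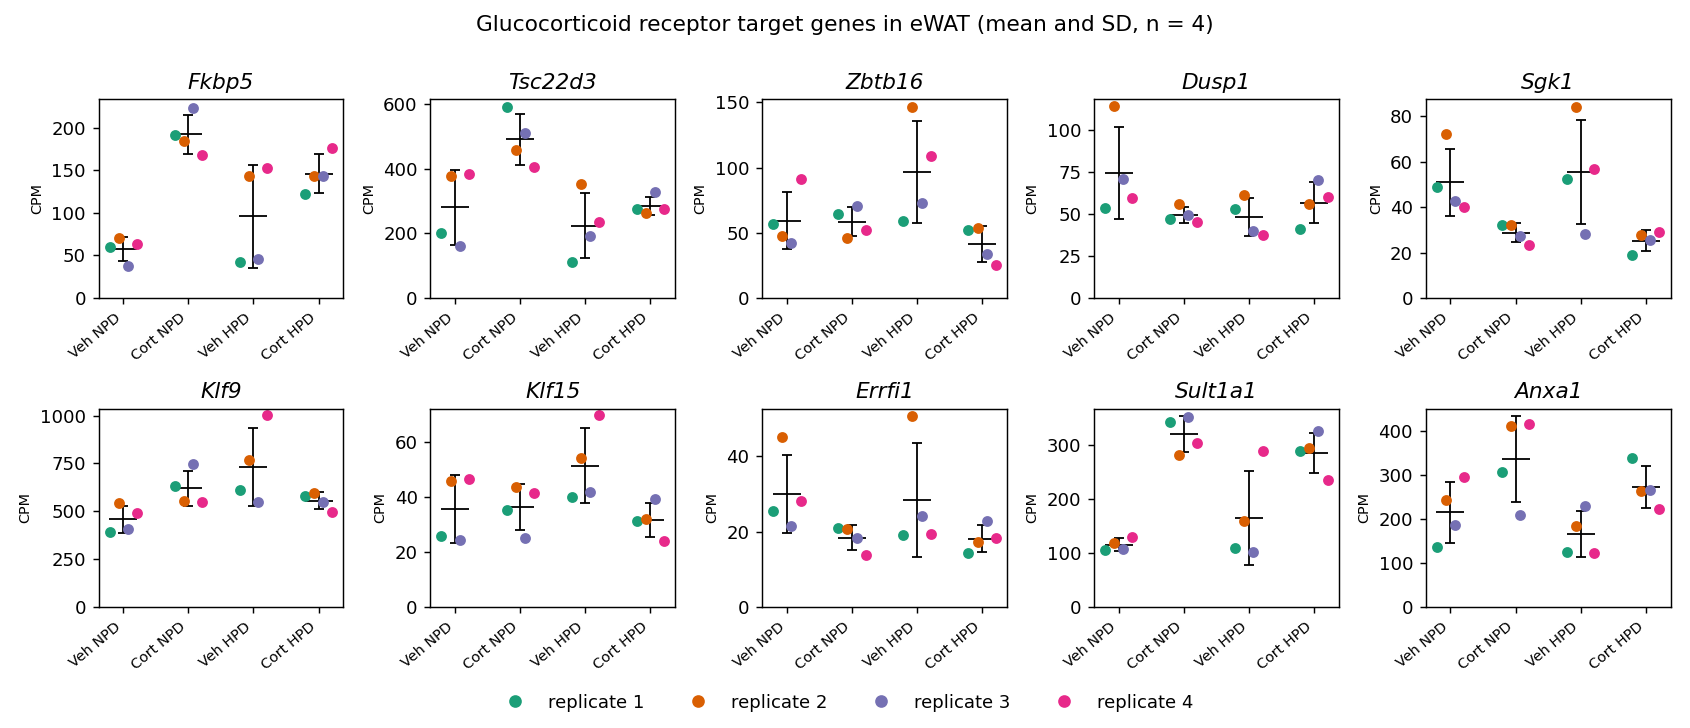
CPM (vertical axes, from 0) of the 10 genes in each eWAT library, by group, with colour for the replicate number, the mean as a bar and the SD as whiskers (n = 4). Fkbp5 and Sult1a1 are higher in all Cort NPD libraries than in any Veh NPD library, and in Veh HPD replicates 2 and 4 lie high for Fkbp5.

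On the HPD, Cort raised none of the 10 genes in eWAT by the test and lowered 2, Zbtb16 and Sgk1. In this comparison 6.09% of all genes tested were called, 3.46% as higher and 2.63% as lower. Zbtb16 was at 58.8, 146, 73.1 and 109 CPM in Veh HPD and at 52.0, 53.8, 33.8 and 25.4 CPM in Cort HPD. The groups did not overlap (log2 fold change -1.24, SE 0.33, edgeR adjusted p = 0.0433), although the call was lost in 16 of 24 alternative settings, among them without Veh HPD replicate 2 (change -0.97, edgeR adjusted p = 0.122). It was also lost without Cort HPD replicate 4, the library with epididymis markers (change -1.06, edgeR adjusted p = 0.105), which left 1 of the 10 genes called lower. Sgk1 was at 52.4, 84.2, 28.4 and 56.6 CPM in Veh HPD and at 18.9, 27.7, 25.3 and 29.0 CPM in Cort HPD, where only Veh replicate 3 reached the Cort range. It fell by 1.14 on the log2 scale (SE 0.26, edgeR adjusted p = 0.011) and was called in all 24 alternative settings.

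Fkbp5 on the HPD was at 41.7, 144, 45.6 and 153 CPM in Veh and at 122, 143, 143 and 176 CPM in Cort. Veh replicates 2 and 4 were within the Cort range and Veh replicates 1 and 3 far below it, and the change of 0.60 (SE 0.38) did not pass the test (edgeR adjusted p = 0.445). Sult1a1 was at 109, 159.8, 102 and 288 CPM in Veh HPD and at 287, 293, 324 and 235 CPM in Cort HPD, with Veh replicate 4 inside the Cort range (change 0.79, edgeR adjusted p = 0.0763). Without that library the change was 1.20 and passed the test (edgeR adjusted p = 1.60e-06). The other 6 changes lay between -0.70 for Klf15 and 0.71 for Anxa1. Klf9, which had a change of 0.44 on the NPD, had one of -0.40 on the HPD, and neither passed the test. Here 5 of the 10 changes were positive, the median was -0.08 and the median absolute change 0.68, and 2 genes had groups without overlap, where 11.3% of all genes tested did. Red blood cell markers summed to 12684 to 25856 CPM in Cort HPD and to 3619 to 9273 CPM in the other eWAT groups. Adipocyte markers summed to 31846 to 38055 CPM in Cort HPD and to 41810 to 56866 CPM in Veh HPD, and the part of either in these values was not tested.

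In liver of mice on the NPD, Cort raised Fkbp5 and Sult1a1, the pair that rose in eWAT on this diet, and lowered none of the 10 genes by the test. Of all genes tested here 12.6% were called, 6.84% as higher and 5.79% as lower. Fkbp5 was at 22.6, 56.5, 22.1 and 60.5 CPM in Veh NPD and at 234, 171, 211 and 139 CPM in Cort NPD. Each Cort library lay above each Veh library, and the rise was 4.68-fold (log2 fold change 2.23, SE 0.48, edgeR adjusted p = 0.00939). Sult1a1 went from 158, 198, 143 and 249 CPM to 409, 390.0, 385 and 424 CPM, with Cort libraries within a narrow range. It rose 2.15-fold (log2 fold change 1.10, SE 0.20, edgeR adjusted p = 7.52e-04). Both calls held in all 24 alternative settings.

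The other 8 genes had changes between -0.49 (Klf15) and 0.24 (Anxa1), and the groups of all 8 overlapped. Tsc22d3, which is among the most abundant of the 10 genes in eWAT, was at 64.4, 159, 71.8 and 125 CPM in liver of Veh NPD and at 152, 117, 124 and 65.1 CPM in Cort NPD, both of them wide ranges. Zbtb16 was low in liver, with 7.98, 9.02, 4.16 and 10.1 CPM in Veh NPD and 17.1, 5.69, 5.38 and 4.74 CPM in Cort NPD, and its replicate 1 of Cort NPD stood alone. Anxa1, expressed by mesothelial, immune and stromal cells, was at 1.86 to 5.41 CPM in the liver libraries used, where eWAT held 123 to 415 CPM. The median change of the 10 genes was -0.06 and the median absolute change 0.31, beside -0.01 and 0.30 over all genes tested, and 2 of the 10 genes had groups without overlap, where 18.5% of all genes did. Macrophage markers summed to 201 to 288 CPM in Veh NPD and to 92.2 to 188 CPM in Cort NPD of liver, and their part in these values was not tested.

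**Figure D2:**
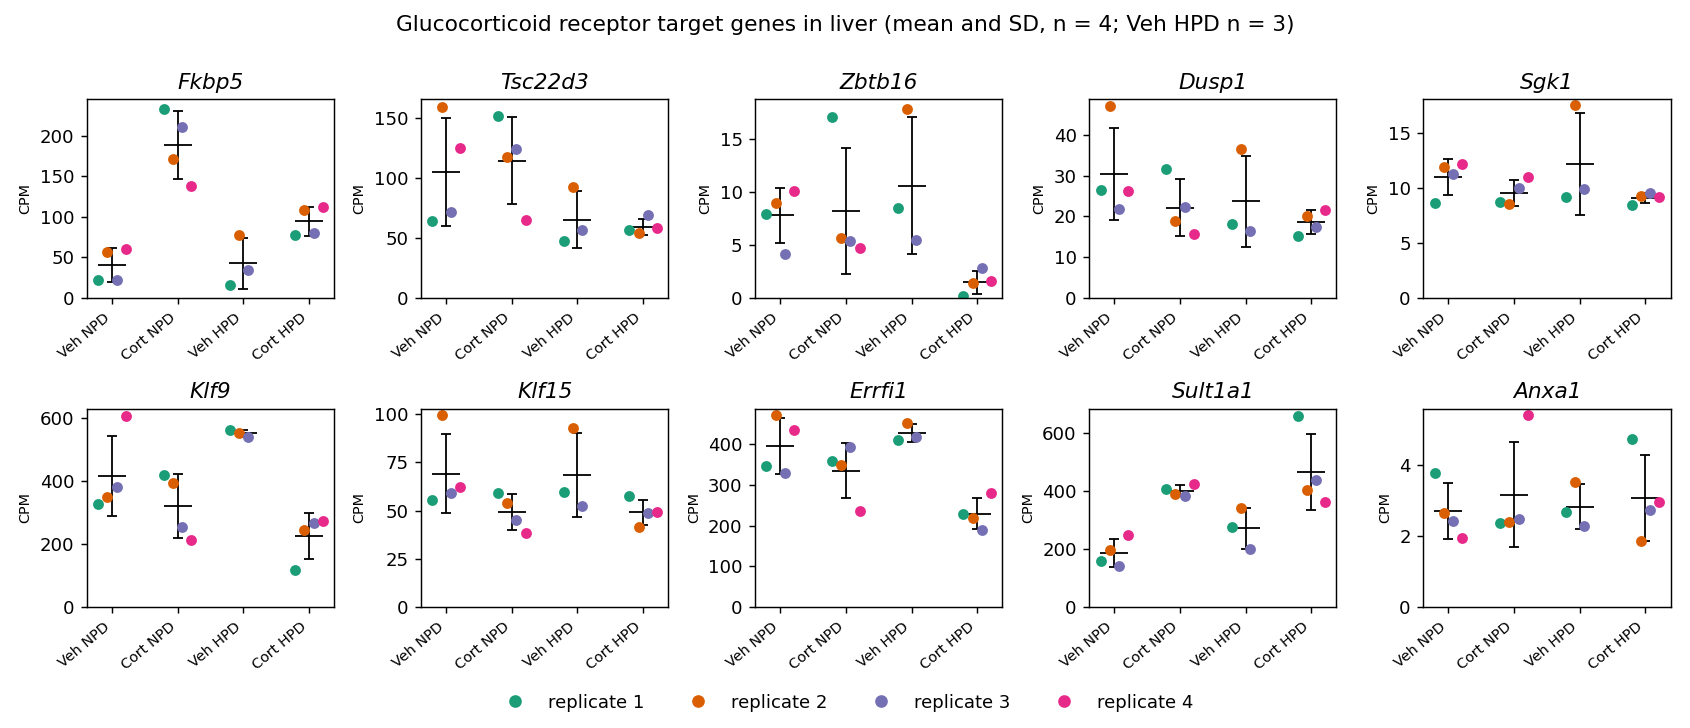
CPM (vertical axes, from 0) of the 10 genes in each liver library used, by group, with colour for the replicate number, the mean as a bar and the SD as whiskers (n = 4, and 3 for Veh HPD). Fkbp5 is highest in Cort NPD, and Zbtb16, Klf9 and Errfi1 are lowest in Cort HPD.

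On the HPD, Cort lowered 3 of the 10 genes in liver, Zbtb16, Klf9 and Errfi1, and raised 1, Sult1a1. In this comparison 9.89% of all genes tested were called, 4.75% as higher and 5.14% as lower. Zbtb16 was at 8.48, 17.9 and 5.47 CPM in the 3 Veh HPD libraries and at 0.170, 1.40, 2.83 and 1.56 CPM in Cort HPD. The Cort values rest on 2, 24, 37 and 21 reads, of which the first is within a floor of 3 reads. The groups did not overlap (log2 fold change -2.80, SE 0.66, edgeR adjusted p = 0.0187), and the call was lost in 3 of 24 alternative settings, which were the replicate block (change -2.66, edgeR adjusted p = 0.0627) and the fits that left out Veh HPD replicate 2 (-2.20, 0.0664) or Cort HPD replicate 2 (-2.76, 0.0530).

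Klf9, a repressor that also answers to thyroid hormone, was at 561, 554 and 540.1 CPM in Veh HPD and at 116, 246, 267 and 273 CPM in Cort HPD. Every Cort library was below every Veh library, and Cort replicate 1 was the lowest by far (log2 fold change -1.29, SE 0.28, edgeR adjusted p = 0.00705). Errfi1 was at 411, 452 and 418 CPM and at 229.7, 219.6, 189 and 281 CPM, again apart (log2 fold change -0.89, SE 0.18, edgeR adjusted p = 0.00289). Both falls were called in all 24 alternative settings, which include those without Cort HPD replicate 1. Sult1a1 was at 276, 341 and 199.7 CPM in Veh HPD and at 658, 403, 438 and 363 CPM in Cort HPD, and Cort replicate 1 was the highest library of the tissue. Its rise of 1.71-fold (log2 fold change 0.77, SE 0.22, edgeR adjusted p = 0.0277) was lost in 6 alternative settings, among them leaving out Cort HPD replicate 1 (change 0.56, edgeR adjusted p = 0.0711), Veh HPD replicate 1 (0.78, 0.0834) or Veh HPD replicate 3 (0.60, 0.141).

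Fkbp5 was at 15.6, 77.7 and 34.9 CPM in Veh HPD and at 77.6, 108, 79.9 and 112 CPM in Cort HPD. Veh replicate 2 lay at the lower edge of the Cort range and the other Veh libraries far below it, and the change of 1.15 (SE 0.51) did not pass the test (edgeR adjusted p = 0.188). Without Veh HPD replicate 2 the change was 1.92 with an edgeR adjusted p of 0.0318. In liver on the HPD 3 of the 10 changes were positive, the median was -0.38 and the median absolute change 0.62, beside 0.00 and 0.30 over all genes tested, and 4 genes had groups without overlap, where 21.2% of all genes did. Hepatocyte markers summed to 147087 to 258370 CPM in Cort HPD, with Cort HPD replicate 1 the highest, and to 74905 to 86699 CPM in the 3 Veh HPD libraries, and none of those 8 markers was at 0. Red blood cell markers summed to 5271 to 7622 CPM in Cort HPD and to 1358 to 3544 CPM in the other liver groups, and endothelial markers to 29.0 to 43.2 CPM in Cort HPD and 56.5 to 72.4 CPM in Veh HPD. The part of these cell types in the falls of Zbtb16, Klf9 and Errfi1 was not tested.

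**Figure D3:**
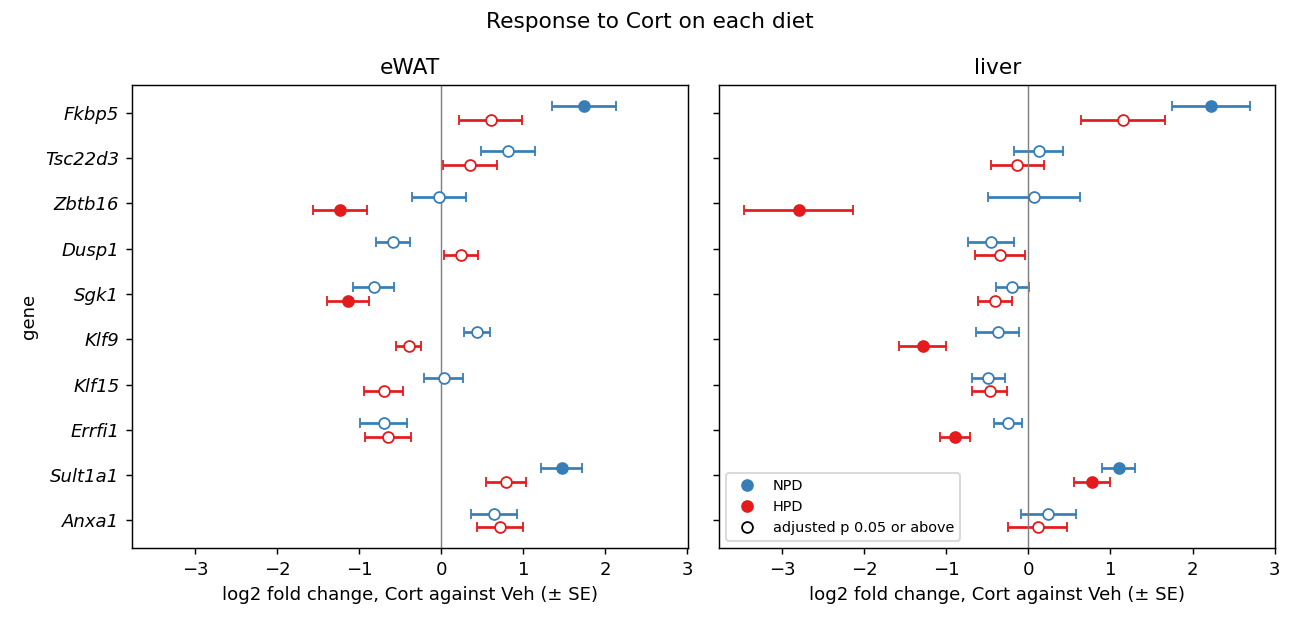
Log2 fold change of Cort against Veh (horizontal axis, with SE) for each of the 10 genes in eWAT (left) and liver (right), on the NPD (blue) and the HPD (red), where filled points had an adjusted p under 0.05. Fkbp5 and Sult1a1 lie to the right of 0 in all 4 comparisons, and Sgk1 and Errfi1 to the left.

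Put side by side, the changes of Fkbp5 with Cort were 1.74 and 0.60 in eWAT and 2.23 and 1.15 in liver, on the NPD and the HPD in turn. Those of Sult1a1 were 1.47 and 0.79 in eWAT and 1.10 and 0.77 in liver. The difference between the diets was tested as an interaction, in which 0.0132% of all genes were called in eWAT (0.00658% in each direction) and 0.113% in liver (0.0565% in each direction), and edgeR called none of the 10 genes in either tissue, as did DESeq2 and limma voom. At an unadjusted p under 0.05, 4 of the 10 genes passed in eWAT, where 5.16% of all genes did, and 3 in liver, where 12.1% did. In eWAT Klf9 had the smallest edgeR unadjusted p (7.61e-04), with an interaction of -0.83 on the log2 scale (SE 0.22) and an adjusted p of 0.592. The others were Zbtb16 (-1.21), Dusp1 (0.83) and Klf15 (-0.73). In liver they were Zbtb16 (-2.87, SE 0.87), Klf9 (-0.92, SE 0.39) and Errfi1 (-0.65, SE 0.25), all more negative on the HPD. For Fkbp5 the interaction was -1.14 (SE 0.54) in eWAT and -1.07 (SE 0.67) in liver, so that a smaller response on the HPD was not shown beyond the spread between mice.

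The response to Cort, averaged over the diets, was compared between the tissues in a fit of 31 libraries, in which 7.76% of all genes were called (3.88% in each direction). This fit took the libraries as independent, since the labels do not say which eWAT and liver libraries share a mouse. Klf9 was called, with a response lower in liver than in eWAT by 0.85 on the log2 scale (SE 0.23, edgeR adjusted p = 0.0165), and with all 16 liver libraries the difference was -0.74 and lost its call (adjusted p = 0.0673). Sgk1 had a difference of 0.68 (SE 0.24, edgeR adjusted p = 0.0757). Fkbp5 and Sult1a1 had differences of 0.52 (SE 0.43) and -0.19 (SE 0.24), which did not pass the test.

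By the test the diet moved none of these genes under Veh, and under Cort it moved 1, in liver. Under Veh, where 0.0593% of all genes were called in eWAT (0.0461% as lower) and 0.169% in liver (0.0646% as lower), edgeR called none of the 10 in either tissue, while DESeq2 called 1 in eWAT and none in liver. At an unadjusted p under 0.05 there were 4 in eWAT, where 8.03% of all genes passed, and 1 in liver, where 9.4% passed. In eWAT the smallest was Klf9, at 395, 542, 409 and 492 CPM in Veh NPD and 609, 766, 548 and 1004 CPM in Veh HPD, without overlap (change 0.67, SE 0.16, edgeR adjusted p = 0.0887). It was the only one of the 10 genes without overlap there, where 4.28% of all genes had none, and in liver there was no such gene, where 9.47% of all genes had none. The smallest in liver was that of Sult1a1 (change 0.54, SE 0.21, edgeR adjusted p = 0.399).

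Under Cort, 0.487% of all genes differed between the diets in eWAT and 5.88% in liver (3.08% as higher and 2.8% as lower on the HPD), and the groups of 6.66% and 13.3% of all genes did not overlap. In eWAT edgeR called none of the 10 genes, as did DESeq2 and limma voom, and 1 had an unadjusted p under 0.05, as did 9.81% of all genes. It was Tsc22d3, which was at 591, 459.6, 510.1 and 406 CPM in Cort NPD and at 276, 262, 327 and 275 CPM in Cort HPD. Its groups, the only ones of the 10 genes without overlap, ran from 406 to 591 CPM and from 262 to 327 CPM (change -0.79, SE 0.33, edgeR adjusted p = 0.442). In liver Zbtb16 was called, as lower on the HPD (log2 fold change -2.44, SE 0.63, edgeR adjusted p = 0.0415), a call lost in 14 of 24 alternative settings. Fkbp5, with Zbtb16 1 of the 2 genes without overlap there, was lower in every Cort HPD library but did not pass the test (change -0.998, edgeR adjusted p = 0.232). Tsc22d3 and Errfi1 had changes of -0.94 and -0.54 and were called in 5 of 24 alternative settings each. The comparisons of Cort on a diet and of the diets under Cort share the Cort libraries, so that their values for a gene are not independent.

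To grade the hormone signal of each library, the log2 CPM of each of the 10 genes was set against its mean in the Veh groups of that tissue (the mean of the 2 diets) and the 10 deviations were averaged. No test was made of this grade, and the Veh groups average to 0 by construction. In eWAT the grades were -0.29, 0.27, -0.39 and 0.14 in Veh NPD, -0.34, 0.56, -0.24 and 0.30 in Veh HPD, 0.34, 0.30, 0.24 and 0.16 in Cort NPD and -0.05, 0.06, 0.12 and -0.10 in Cort HPD, in the order of the replicate numbers. All 4 Cort NPD libraries were above 0, with a mean of 0.26 ± 0.08 (SD, n = 4), and the Cort HPD libraries lay around 0, with a mean of 0.01 ± 0.10 (SD, n = 4). In liver the grades were -0.24, 0.29, -0.36 and 0.19 in Veh NPD, -0.23, 0.54 and -0.24 in Veh HPD replicates 1 to 3, 0.48, 0.14, 0.14 and -0.06 in Cort NPD and -0.60, -0.42, -0.27 and -0.25 in Cort HPD. The Cort NPD libraries had a mean of 0.17 ± 0.23 (SD, n = 4), and all 4 Cort HPD libraries were below 0, with a mean of -0.38 ± 0.16 (SD, n = 4). Zbtb16 had the largest deviations in liver of Cort HPD, at -4.75 (from 2 reads), -2.47, -1.52 and -2.32. Fkbp5 deviated there by 1.12, 1.61, 1.17 and 1.65. In Cort NPD Fkbp5 deviated by 1.33 to 1.74 in eWAT and 1.96 to 2.72 in liver. Sult1a1 deviated by 1.10 to 1.42 and 0.80 to 0.94 in turn. With the median over the genes in place of the mean, the group means were 0.02 for Cort NPD and -0.04 for Cort HPD in eWAT, and -0.20 and -0.41 in liver. The average thus mixed positive and negative deviations, with 5 of the 10 genes above the Veh mean in each eWAT Cort library, and no Cort library was graded as high as the highest Veh library of its tissue.

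The Veh libraries differed among themselves in a like way in many of the 10 genes. In both tissues and on both diets Veh replicates 1 and 3 were graded below 0 and Veh replicate 2 above 0. Veh replicate 4 was also graded above 0 wherever it was used, but the liver Veh HPD replicate 4 left out was graded -0.41. In eWAT replicates 2 and 4 held the highest and second highest values of 7 of the 10 genes in Veh NPD and of 7 of the 10 in Veh HPD, and in liver of 7 of the 10 in Veh NPD. In liver of Veh HPD, with 3 libraries, replicate 2 was the highest for 9 of the 10 genes. Under Cort, replicates 2 and 4 held the 2 highest values of 2 of the 10 genes on the NPD and 1 on the HPD in eWAT. In liver these numbers were 0 and 2. This order of the replicates was picked after the values were seen, and its share over all genes was not computed. Over the 8 Veh libraries of eWAT the highest level of a gene was 2.40 to 4.12 times the lowest (median 2.92), and over the 8 Cort libraries 1.496 to 2.78 times (median 1.76). Over the liver libraries these ratios were 1.43 to 4.99 (median 2.21) under Veh and 1.30 to 101 (median 2.45) under Cort, where the highest was that of Zbtb16. In eWAT the levels thus ranged more widely over the Veh libraries than over the Cort libraries, and in liver the medians were close.

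A second list of receptor targets, of which 26 were tested in eWAT and 28 in liver, gave grades of -0.26, 0.30, -0.32 and -0.01 in Veh NPD and -0.16, 0.51, -0.27 and 0.21 in Veh HPD of eWAT. In liver they were -0.24, 0.43, -0.41 and -0.06 in Veh NPD and 0.03, 0.60 and -0.41 in Veh HPD replicates 1 to 3. Replicate 2 was the highest of each of these Veh groups. The labels do not say whether eWAT and liver libraries of the same number come from the same mouse, nor when each mouse was sampled.

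**Figure D4:**
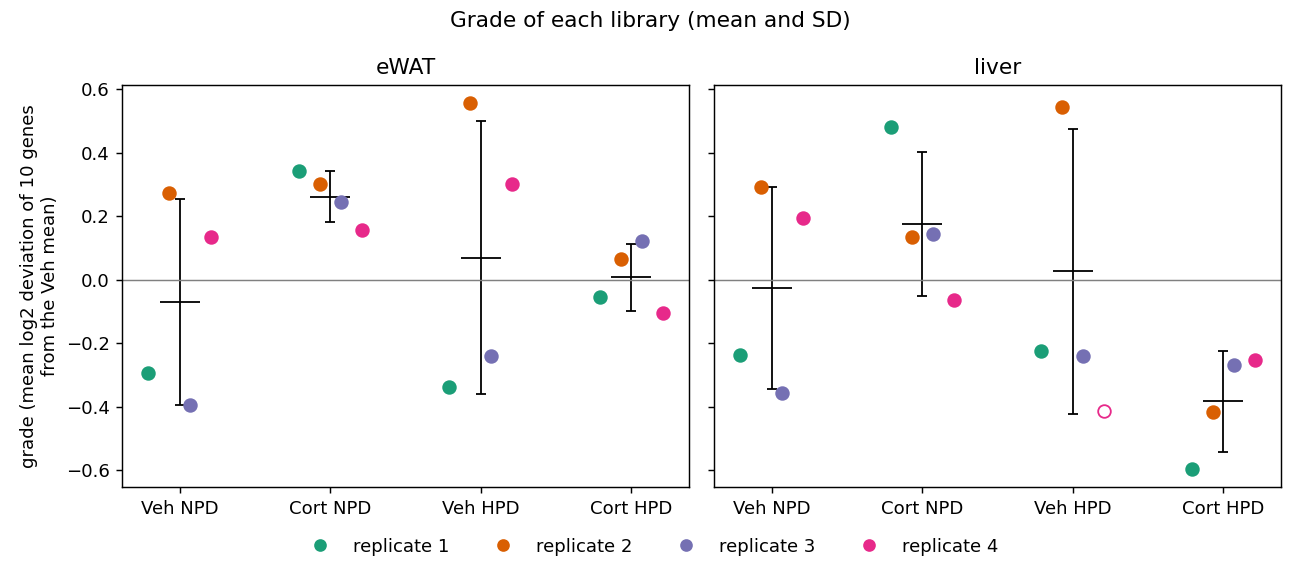
Grade of each library (vertical axis, mean log2 deviation of the 10 genes from the Veh mean of the tissue) in eWAT and liver, with colour for the replicate number, the mean as a bar and the SD as whiskers (n = 4, and 3 for liver Veh HPD, whose open point is the library left out). Veh replicates 1 and 3 lie below 0 and Veh replicate 2 above it in both tissues, and all liver Cort HPD libraries lie below 0.

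**Figure D5:**
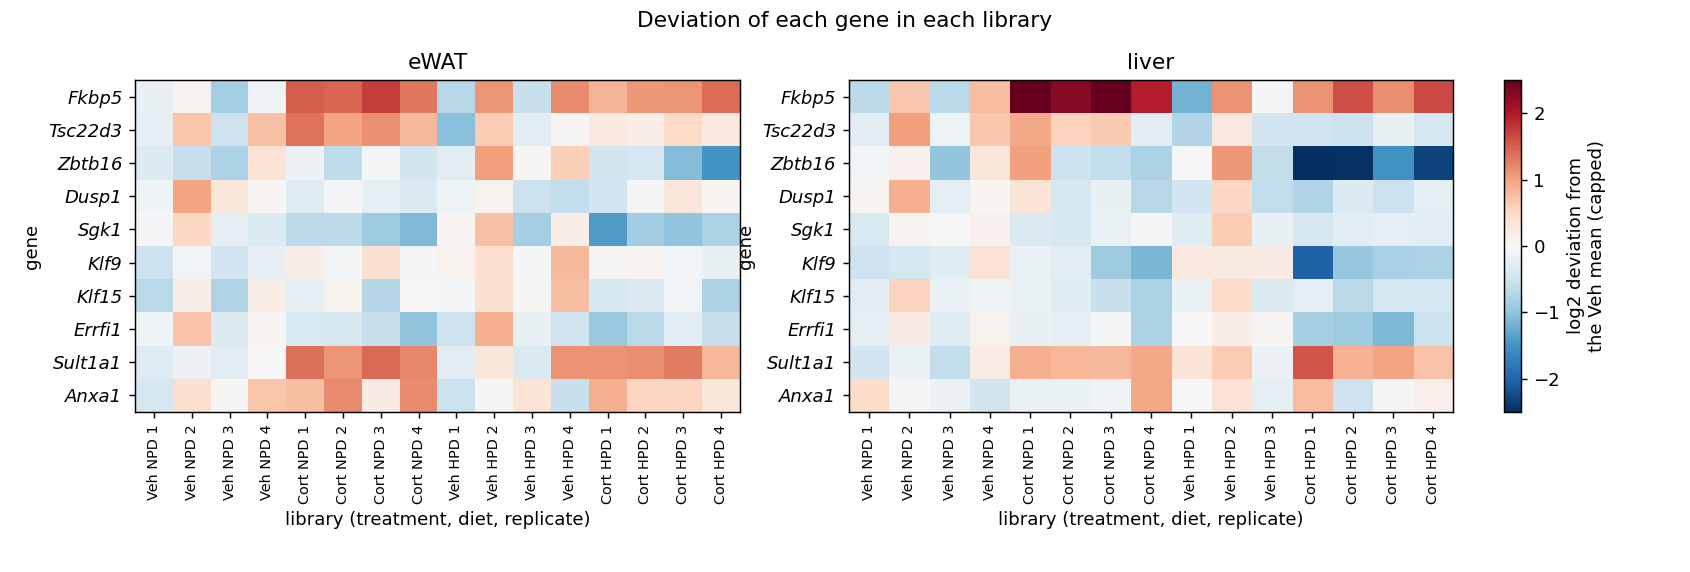
Log2 deviation from the Veh mean (colour) for the 10 genes (rows) in each library (columns) of eWAT and liver. The rows of Fkbp5 and Sult1a1 are red across the Cort libraries of both tissues, those of Sgk1 and Errfi1 are mostly blue in eWAT, and Zbtb16 is dark blue in liver of Cort HPD.

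The second list, of 30 targets such as metallothioneins and gluconeogenic enzymes, also moved both ways. It too was chosen with earlier results of these data known. In eWAT on the NPD 4 of 26 rose and 1 fell, where 4.05% of all genes tested were called as higher and 3.93% as lower. The smallest p-values among the rises were those of the metallothioneins Mt1, from 752 CPM ± 281 (SD, n = 4) to 3802 CPM ± 576 (SD, n = 4) (log2 fold change 2.34), and Mt2 (2.49), and of Hif3a (2.29). Hif3a was low, with means of 1.18 CPM in Veh NPD and 5.74 CPM in Cort NPD. Rgs2, which limits signalling of G proteins, fell by 1.36 on the log2 scale. On the HPD 3 rose, Mt1 (1.90), Mt2 (1.86) and Lcn2, and 2 fell, Rgs2 (-1.69) and Nfkbia (-0.72). Of all genes tested there, 3.46% were called as higher and 2.63% as lower. Lcn2 was at 16.2, 17.9, 28.3 and 898 CPM in Cort HPD, with replicate 4, the library with epididymis markers, far above the others. Its change was 5.59, and without that library 2.06 (edgeR adjusted p = 0.00116), with 3 of the list called higher and 2 lower either way.

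In liver on the NPD 4 of 28 rose, led by the acute-phase gene Lcn2, from 6.02 CPM ± 2.03 (SD, n = 4) to 174 CPM ± 66.3 (SD, n = 4) (log2 fold change 4.86), with Gadd45b (4.15) and Fam107a (3.62). Gadd45b and Fam107a were near 0 in Veh NPD, with means of 0.708 CPM (0 to 15 reads) and 0.327 CPM (0 to 10 reads). In Cort NPD their means were 12.2 and 3.77 CPM, so that the size of these changes rests on few Veh reads. Over all genes tested, 6.84% were called as higher and 5.79% as lower. Nfkbia (-0.65), Cebpb (-0.93) and Tat (-1.25), an enzyme of tyrosine breakdown, fell. On the HPD 4 rose and 5 fell, where 4.75% of all genes tested were called as higher and 5.14% as lower. Those of the list with the smallest p-values were Lcn2 (4.74), Gadd45b (4.18) and G6pc (1.17), the last enzyme of glucose release, among the rises, and Cebpb (-1.44), the clock gene Per1 (-1.59) and Angptl4 (-1.06) among the falls. The means of G6pc were 195 CPM in Veh HPD (n = 3) and 439 CPM in Cort HPD, beside 384 CPM in Veh NPD and 395 CPM in Cort NPD. Gadd45b was again near 0 under Veh, with a mean of 0.579 CPM in Veh HPD. Mt1 in liver, chosen after its values were seen, had changes of 0.76 and 1.11 that did not pass the test, and its Veh NPD libraries ran from 126 to 1249 CPM, with replicates 2 and 4 the highest.

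Among 14 genes of the receptor and its ligand supply, Nr3c1 itself was called in no Cort comparison. It was at 132 CPM ± 16.7 (SD, n = 4), 108 CPM ± 8.37 (SD, n = 4), 143 CPM ± 23.4 (SD, n = 4) and 119 CPM ± 11.8 (SD, n = 4) in Veh NPD, Cort NPD, Veh HPD and Cort HPD of eWAT. In liver its group means were 35.4 to 44.2 CPM. Hsd11b1, the enzyme that regenerates active corticosterone inside the cell, rose in eWAT on both diets, by 1.57 (SE 0.33, edgeR adjusted p = 0.0101) on the NPD and 1.39 (SE 0.33, edgeR adjusted p = 0.0249) on the HPD. In liver its changes were -0.10 and 0.44 and did not pass the test. Serpina6, which encodes the plasma globulin that carries corticosterone, fell in liver on both diets. It was at 30.5, 44.2, 60.9 and 56.3 CPM in Veh NPD and 5.46, 6.73, 2.88 and 9.60 CPM in Cort NPD, and at 74.6, 72.2 and 99.9 CPM in Veh HPD and 9.66, 5.47, 12.3 and 9.06 CPM in Cort HPD. Every Cort library lay far below every Veh library, with log2 fold changes of -2.95 (edgeR adjusted p = 1.61e-05) on the NPD and -3.18 (edgeR adjusted p = 1.60e-05) on the HPD. No other gene of these 14 was called in the Cort comparisons within a tissue.

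The genes whose profile was nearest to that of Fkbp5 over the 31 libraries, by the root mean square difference of log2 deviations from the Veh mean among 11634 genes tested in both tissues, were Pole4 (0.63), Serpine2 (0.64) and Fmo1 (0.65), where Fkbp5 itself deviated by 1.32. Since they were picked by nearness to Fkbp5 over these same Cort and Veh libraries, a rise with Cort follows from the choice and is no separate result. All 3 rose with Cort in all 4 comparisons, Pole4 by 1.06 and 0.57 in eWAT and 1.35 and 1.31 in liver. Serpine2, a protease inhibitor, rose by 1.01, 0.87, 2.67 and 1.60 in the same order, and Fmo1, a flavin monooxygenase, by 1.06, 0.61, 1.65 and 1.57. Sult1a1 was the 9th nearest (0.74), and none of the other 8 genes ranked above 430. Nearest to the mean of the 10 genes were Foxo1 (0.17), Rxra (0.24) and Ppme1 (0.26), where the mean itself deviated by 0.30. Foxo1, a transcription factor of fasting metabolism, was called in none of the 4 comparisons of Cort with Veh.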

How the data were processed

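Raw counts per gene were deposited by the authors for 32 QuantSeq libraries, 4 in each of 8 groups, and the submitters' processing notes name GRCm38/mm10, R 4.0.3 and limma. The aligner and the counting program are not given in the sources used here. Of 47643 Ensembl genes, 419 had no symbol. Each tissue was fitted with edgeR 4.0.16 (R 4.3.3, limma 3.58.1) by the quasi-likelihood test with TMM factors, robust dispersions and a filter by expression (minimum count 10, minimum total 15), and a joint fit of 31 libraries compared the tissues. P-values were adjusted with the Benjamini-Hochberg method over all genes tested, with a threshold of 0.05. Each SE of a log2 fold change was worked back from the test, as its absolute value divided by the square root of the quasi-likelihood F. Liver Veh HPD replicate 4 was left out, and an alternative kept it. The grade used log2 CPM with a prior count of 2. The scripts were tested on simulated data, with changes larger than most of those reported here and less spread than between the eWAT libraries. That test does not show how well smaller changes are found.

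The libraries held 8933307 to 18057936 counts, and no 2 replicates were alike within sampling noise (48 pairs). The p-values measure the spread between these libraries, which may hold technical spread. The study used several cohorts of mice, and neither its methods nor the labels say from which of them these libraries came. Same-numbered libraries of a tissue were not taken as paired, since the labels state no pairing and the correlations of their deviations from the group means ran from -0.12 to 0.25 in eWAT and -0.13 to 0.16 in liver. Across the tissues the median correlation was 0.022 for same numbers (15 pairs) and -0.015 for other numbers (45 pairs). These correlations ran from -0.0038 to 0.112 for same numbers and from -0.089 to 0.061 for other numbers. The labels do not say whether same-numbered libraries share a mouse, and no test paired eWAT with liver. The alternatives were RLE factors, library totals without factors, no filter, only the 2 groups compared, the replicate block, DESeq2 1.42.0, limma voom with and without quality weights, all 16 liver libraries, and each replicate left out. The 10 genes and the other lists were chosen with earlier results of these data known. Named beside the 10 genes are up to 3 called genes of each other list per direction with the smallest p, Nr3c1 and Hsd11b1, and the 3 genes nearest in profile to Fkbp5 and to the mean of the 10. The receptor element was searched in start-site windows alone. Figures were drawn with matplotlib 3.10.9 (Python 3.11.15).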

Additional observations from a re-analysis of the deposited data

Results flagged for a closer look

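Of 77 groups of 4 libraries checked for 1 value far from the others (Dixon's test of the gap over the range, at the 95% level), 4 were found, where chance gives about 1 in 20, or 3.85. Zbtb16 in liver of Cort NPD was at 17.1 CPM in replicate 1 and at 4.74 to 5.69 CPM in the others. Klf15 in liver of Veh NPD was at 99.7 CPM in replicate 2 and at 55.3 to 62.3 CPM in the others. Errfi1 in eWAT of Veh HPD was at 50.6 CPM in replicate 2 and at 19.2 to 24.2 CPM in the others. Anxa1 in liver of Cort NPD was at 5.41 CPM in replicate 4 and at 2.39 to 2.498 CPM in the others. The response of Klf9 to Cort differed between the tissues by -0.85 on the log2 scale (liver minus eWAT, edgeR adjusted p = 0.0165, and 0.0673 with all 16 liver libraries).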

How the results depend on the processing

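Of 1440 values of single genes under an alternative (60 results), 1335 kept their direction and side of the threshold, 41 lost a call, 38 gained one and 26 changed sign. Where a count or sign moved, the cause was not tested. In eWAT on the NPD, where none of the 10 genes was called lower, 1 was with library totals, DESeq2 or the replicate block and 2 with only the 2 groups compared, 0 to 2 with single libraries left out, and those called higher were then 1 to 3. In eWAT on the HPD 1 was called higher with limma voom and with its quality weights (0 to 1 with single libraries left out), and 1 in place of 2 was called lower with quality weights, with no filter and with the replicate block (1 to 2). For the HPD under Veh in eWAT 1 was called higher with DESeq2 or no filter (0 to 1), and under Cort 1 lower with only the 2 groups compared. For Cort in liver on the HPD 0 in place of 1 were called higher with library totals, quality weights or only the 2 groups compared (0 to 2). For the HPD under Cort in liver, where 1 was called lower, 3 were with library totals or DESeq2, 2 with only the 2 groups compared, and 0 with limma voom, no filter or the replicate block (0 to 3). The response in liver against eWAT held 0 lower calls with all 16 liver libraries, and 0 to 1 higher calls with single libraries left out.

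The mean grade of Cort NPD in eWAT was 0.171 with library totals and 0.0219 with the median over the genes, that of Cort HPD in eWAT was -0.0302 and -0.0359, that of Cort NPD in liver was -0.199 with the median, and that of Cort HPD in liver was -0.594 with library totals. The sign of a change turned on the NPD in eWAT for Klf15 (-0.0568 with library totals, -0.115 to 0.179 with single libraries left out) and Zbtb16 (0.0227 with limma voom, 0.0136 with the replicate block, -0.159 to 0.2498). On the NPD in liver it turned for Zbtb16 (-0.0846 with limma voom, -0.138 with quality weights, -0.571 to 0.252), Tsc22d3 (-0.0665 to 0.385) and Anxa1 (-0.169 to 0.445). On the HPD in liver it turned for Anxa1 (-0.153 with library totals, -0.204 with quality weights, -0.183 with all 16 libraries, -0.167 to 0.311 with 1 left out), Tsc22d3 (0.145 with all 16 libraries, -0.328 to 0.212) and Dusp1 (-0.548 to 0.117). The change of Dusp1 there was -0.345 in the main fit, which is not near 0. With the replicate block 2 of the 3 falls in liver on the HPD stayed called, and of same-numbered libraries across tissues 9 of 15 in eWAT and 8 of 15 in liver correlated best with their own number, among the libraries that had a same-numbered partner, a hint from the data and not the design. The number to be had by chance was not computed. Leaving out the eWAT library with epididymis markers for Lcn2 and its list was chosen after seeing the data. At 4 libraries a group and 8933307 counts or more, low genes such as Zbtb16, Anxa1, Gadd45b and Fam107a in liver rest on few reads.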
